A study of Mus musculus with 23 samples.

Results

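Of 28619 distinct T cell receptor alpha chain (TRA) clonotypes, 5765 (20.1%) had a CDR3 of 12 residues or fewer, and these short loops are described here against the other 22854. Here a clonotype means 1 CDR3 amino acid sequence joined to 1 named V and 1 named J. Members were chosen by length alone: the CDR3 had no unresolved residue, began with C and counted 12 residues or fewer from that C to its last residue. The label held, since every member was within that limit, and lengths over all TRA ran from 6 to 52 residues with a median of 14.

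RNA came from a syngeneic mouse model of melanoma grown from the NIL line, which carries Nras Q61R and had been exposed to ultraviolet light to add mutations. All 23 libraries shared this model. Libraries were labelled D4 or D11 and belonged to 4 treatments. Control libraries had no drug, trametinib blocks MEK, BGB-283 blocks RAF kinases, and combination libraries had both drugs. There were 3 libraries in each of the 8 groups, except 2 in control D11. The labels name neither strain nor age nor dose, leave the start of the day count unstated, and give the melanoma line as the tissue, so the source of the T cells is not named. Whether libraries of a group were separate animals is not stated either, and each p-value therefore measures only the spread between these libraries, which may be technical.

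An alpha chain gene is assembled by joining one of many V segments to one of many J segments, with no D segment between them. At the joint, bases are trimmed from both ends and others are added without a template, and the CDR3 is the loop that this joint encodes. It begins at a conserved cysteine of the V segment and ends at a conserved phenylalanine or tryptophan of the J segment, and it lies over the peptide held by the MHC molecule. The V part is short, so most of an alpha CDR3 is read from the J segment, and J segments differ in how many residues they can give. A joint with few added bases is easier to make again in another cell than one with many, which is one way in which receptors come to be shared between animals.

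The shortest and longest J ends are shown first because the length of a loop is counted over them. For each TRAJ segment the residues that most of its CDR3s of 13 residues or more shared at their end were read as its J tail, from the clonotypes and not from a genome. These segments had the highest shares of short clonotypes:
TRAJ43: NNNNAPRF
TRAJ31: SNNRIFF
TRAJ33: DSNYQLIW
TRAJ21: SNYNVLYF
TRAJ9: NMGYKLTF
These had low shares and the longest tails:
TRAJ2: TGGLSGKLTF
TRAJ53: SGGSNYKLTF
TRAJ32: YGSSGNKLIF
TRAJ52: TGANTGKLTF
TRAJ18: RGSALGRLHF
The last, TRAJ18, is the J segment of invariant natural killer T (iNKT) cells, and TRAJ33 is that of mucosal-associated invariant T (MAIT) cells.

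The short clonotypes that the results turn on are given next, each with its V and J segment. The first 6 were listed in the most libraries:
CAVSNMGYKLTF, TRAV7N-5 with TRAJ9, in 14 libraries.
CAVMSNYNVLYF, TRAV7D-3 with TRAJ21, in 11.
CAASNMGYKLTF, TRAV7D-2 with TRAJ9, in 11.
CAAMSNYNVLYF, TRAV14-1V14N-1 with TRAJ21, in 11.
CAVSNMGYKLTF, TRAV7D-3 with TRAJ9, in 8.
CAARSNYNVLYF, TRAV7D-2 with TRAJ21, in 8.
Those with the highest share of a library's TRA counts were the first of these and 5 more:
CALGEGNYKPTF, TRAV6D-5V6N-5 with TRAJ6.
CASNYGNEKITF, TRAV12D-2 with TRAJ48.
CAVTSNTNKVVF, TRAV7D-3 with TRAJ34.
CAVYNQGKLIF, TRAV7-1 with TRAJ23.
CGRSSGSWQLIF, TRAV6N-6 with TRAJ22.
Each of the 6 most shared ends in the whole 8-residue tail of its J segment, printed above for TRAJ9 and TRAJ21, with 4 residues before it. Names such as TRAV14-1V14N-1 join near-identical V copies that the deposited table does not separate.

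Most short loops lay at the limit. There were 4180 clonotypes of 12 residues (72.5% of the short ones), 1175 of 11, 321 of 10, 60 of 9, 17 of 8, 9 of 7 and 3 of 6. Just outside the limit stood 7472 clonotypes of 13 residues, and the most frequent length was 14 with 8793. At 7 residues, the shortest length with at least 5 members, the most abundant were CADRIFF (TRAV12D-2 with TRAJ31, 134 counts) in control D11 replicate 2 and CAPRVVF (TRAV8-2 with TRAJ12, 96 counts) in control D4 replicate 1. Each was listed in 1 library. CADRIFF keeps 4 of the 7 tail residues of TRAJ31, and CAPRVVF keeps 3 of the 8 of TRAJ12.

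Values across the limit of 12 residues changed little. Of the clonotypes of 12 residues 10.4% were listed in at least 2 libraries, against 9.5% of those of 13. Their median was 26 counts per listing at 12 residues and 24 at 13, with means of 145 and 164. Further inside, the share in at least 2 libraries was 6.81% at 11 and 4.67% at 10 residues. The most abundant clonotype of 12 residues was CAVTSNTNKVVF with 38470 counts, 99.3% of them in combination D11 replicate 2, and that of 13 was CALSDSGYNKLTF (TRAV12N-3 with TRAJ11) with 89610 counts in 14 libraries.

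The number of clonotypes set the precision of each share, and it did not follow depth alone. Control D4 replicate 3 had 226822 TRA counts and 673 TRA clonotypes, and combination D11 replicate 1 had 143249 and 1658. TRA counts per library ran from 37335 to 523747, and short clonotypes from 52 in control D4 replicate 1 to 934 in combination D4 replicate 2. For the former the short share of 19.9% had an exact 95% binomial interval of 15.3% to 25.3%, and for the latter 21.4% had 20.1% to 22.6%. These intervals cover counting error only. Clonotypes that differed by 1 residue from one at least 50 times larger of the same V, J and library made up 8.20% of the short and 10.4% of the other listings, a listing being a clonotype in a library. Whether these are separate cells or copies with an error was not tested, and results that move without them are given beside their value.

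Short loops used J segments with short tails. In the 23 libraries the mean length was 11.7 ± 0.0537 residues for short and 14.1 ± 0.0591 for other clonotypes (SD, n = 23), a difference of 2.41. It can be laid out along the loop. The tail of the segment used was shorter by 0.462 residues on average (8.15 against 8.61). A further 0.335 residues of it were not matched (1.21 ± 0.194 against 0.877 ± 0.202). The match ran back from the last residue without a break, so a changed residue ends it as trimming does. The part before the match, which holds the V part and the joint, was shorter by 1.62 (4.73 ± 0.185 against 6.34 ± 0.212). Most of the gap in length therefore lay before the matched J tail. These parts sum to the length that chose the members, so they are a description with no test.

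By tail length the shares of short clonotypes formed steps. The only segment with a 7-residue tail, TRAJ31, had 45.4% short clonotypes (554 of 1221). The 15 segments with 8 residues had 28%, from 9.01% to 50.1% by segment, and supplied 68.1% of all short clonotypes. With 9 residues (19 segments) the share was 11.2%, from 1.20% to 26.7%, and with 10 residues (6 segments) it was 1.93%, from 0.472% to 2.76%. Across the 41 TRAJ segments tail length and short share gave Pearson's r of -0.77 and Spearman's rho of -0.82, as a description, since segments share libraries and tail length is part of loop length. The number of a segment, which follows its place along the locus, gave -0.14 and -0.16. Segments 2 to 20 made up 24.3% of short and 25.3% of other clonotypes, 21 to 40 made up 62.6% and 55.6%, and 41 and above 13.1% and 19%. The middle stretch had the higher share among short clonotypes in 17 of 23 libraries, and the last stretch in 4.

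**Figure D1:**
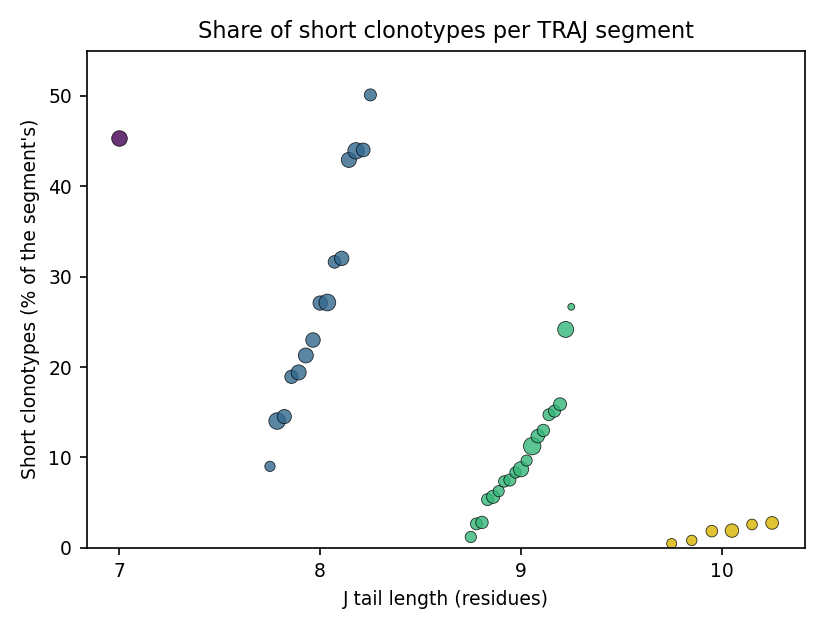
Each point is 1 of 41 TRAJ segments, by the length of its J tail in residues (x axis, points spread sideways) and the percent of its clonotypes with a CDR3 of 12 residues or fewer (y axis); point area grows with the number of clonotypes. The 8-residue segments run from 9.01% to 50.1% and the 10-residue segments stay at or below 2.76%.

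The use of each TRAJ segment by short and other clonotypes was set side by side within libraries, with every clonotype counted once. In edgeR's quasi-likelihood test with the library as a block and Benjamini-Hochberg adjustment, 35 of 41 segments passed the filter on low numbers, 11 (31.4%) were higher and 20 (57.1%) lower among short clonotypes. The segments were not measured apart from the rule, because the J tail is part of the length. The counts and p-values, here and for single segments below, therefore describe which segments make short loops. They are not evidence of a difference apart from length. The median log2 difference over the tested segments was -0.70 for TRAJ and -0.10 for TRAV. With DESeq2 and its size factors the median change per segment was 0.27 for TRAJ and -0.15 for TRAV. With TMM it was -0.13 for TRAV.

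5 segments stood well above the rest. TRAJ21 made up 11.3% ± 3.19 of short and 3.50% ± 0.856 of other clonotypes, with a log2 difference of 1.69 (SE 0.103, adjusted p = 1.62e-22). TRAJ9 made up 9.52% ± 3.79 and 2.81% ± 1.34 (1.75, SE 0.126, adjusted p = 1.03e-19). TRAJ31 made up 8.90% ± 1.96 and 2.82% ± 1.08 (1.71, SE 0.118, adjusted p = 2.78e-20). All 3 were higher among short clonotypes in 23 of 23 libraries. TRAJ33 made up 5.77% ± 2.22 and 1.76% ± 0.915 (1.75, SE 0.164, adjusted p = 4.50e-15). TRAJ43, with the largest difference, made up 3.66% ± 1.72 and 0.860% ± 0.453 (2.00, SE 0.187, adjusted p = 4.26e-15). These 2 were also higher in all 23 libraries, and the 5 segments kept their direction and call in each alternative run on them.

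The others that were higher moved less: TRAJ13 by 0.81, TRAJ34 by 0.69, TRAJ26 by 0.60, TRAJ12 by 0.50 and TRAJ49 by 0.38 on the log2 scale, and TRAJ30 by 0.31. When listed counts replaced clonotypes, only the 5 segments above passed as higher, so none of these did, TRAJ30 included. TRAJ12 (-0.17) and TRAJ34 (-0.55) then changed direction. For TRAJ30 no other alternative is given. At 11 residues or fewer TRAJ26 (-0.06) and TRAJ49 (-0.34) changed direction, and TRAJ34 (0.43, adjusted p = 0.16 in edgeR) and TRAJ12 (0.49, adjusted p = 0.0925) lost their calls. TRAJ49 lost its call without combination D11 replicate 3 (0.33, adjusted p = 0.0504 in edgeR).

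Segments with long tails were nearly absent from short loops. TRAJ2 gave 1 short clonotype of 212 (0.472%, exact 95% interval 0.0119% to 2.60%), so its fitted difference depends on the count added by the fit and is not given. TRAJ18 gave 15 of 544 (2.76%) and made up 0.251% ± 0.579 of short and 2.35% ± 0.734 of other clonotypes (-3.40, SE 0.301, adjusted p = 5.08e-16 in edgeR). The log2 difference was -3.70 for both TRAJ32 (13 short of 682 clonotypes) and TRAJ52 (7 of 379). TRAJ38 gave 4 of 333 and TRAJ28 7 of 271 short clonotypes. The log2 difference was -3.29 for TRAJ5, -2.86 for TRAJ50, -2.12 for TRAJ24 and -1.95 for TRAJ42. TRAJ5, TRAJ50, TRAJ24, TRAJ42 and TRAJ38 have 9-residue tails, so tail length alone did not order the segments.

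**Figure D2:**
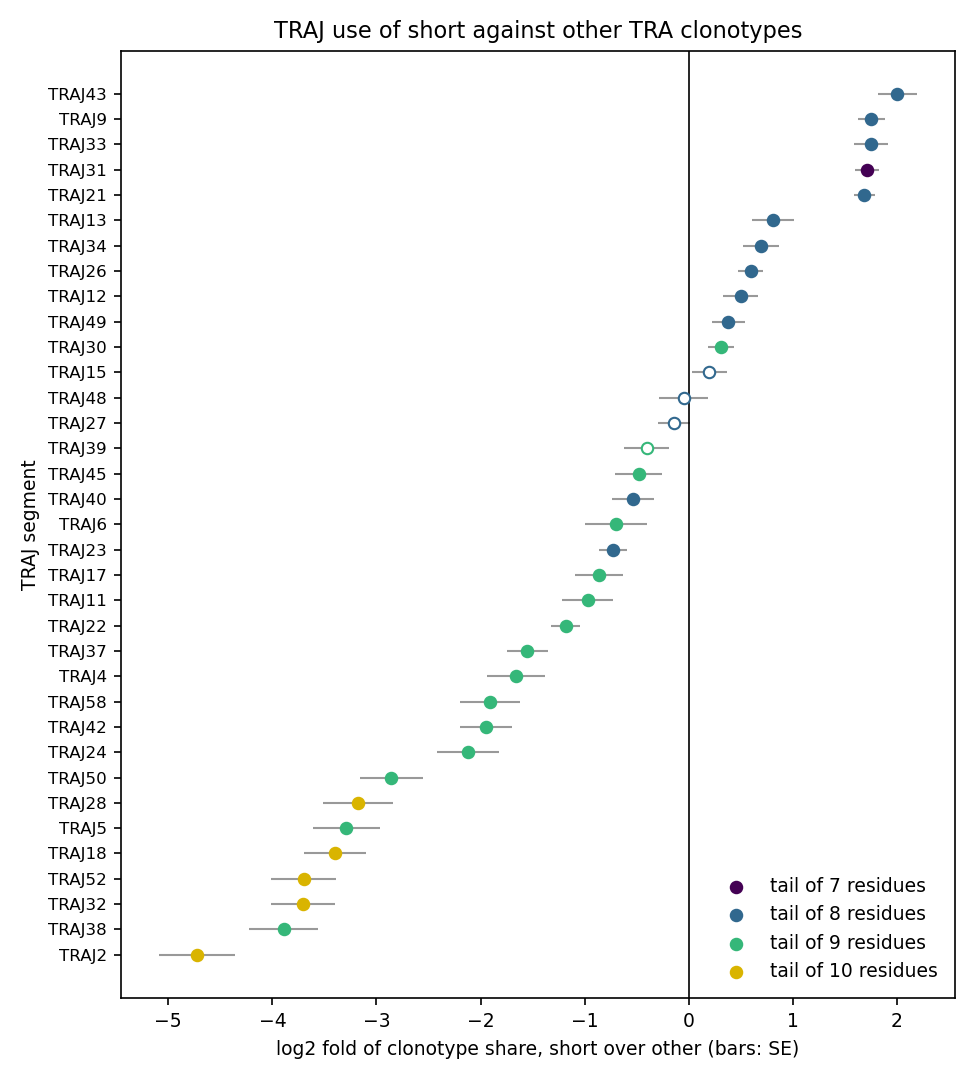
Points give the log2 difference in clonotype share between short and other TRA clonotypes for the 35 tested TRAJ segments (x axis; bars are SE), coloured by J tail length; filled points passed the threshold in edgeR and open points did not. The 5 segments at the right lie between 1.69 and 2.00.

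V segments encode the start of the loop, so their use is not independent of the rule either, and the TRAV and family tests describe which V names make short loops. The table names 143 TRAV segments or joint names, and 47 passed the filter. In edgeR's quasi-likelihood test 11 of 47 (23.4%) were higher and 9 (19.1%) lower among short clonotypes. TRAV7D-3 led, with 4.76% ± 2.21 of short and 1.31% ± 0.672 of other clonotypes (log2 1.87, SE 0.183, adjusted p = 5.82e-14), higher in 22 of 23 libraries. TRAV8-1V8D-1 made up 7.27% ± 2.44 and 3.68% ± 1.30 (1.02, SE 0.138, adjusted p = 3.86e-09), higher in 20. The rest by size were TRAV7D-6 (1.62), TRAV7-1 (1.29), TRAV8-2 (1.20), TRAV7-3V7D-3 (1.14), TRAV8N-2 (1.08), TRAV7N-5 (0.96), TRAV4N-4 (0.71) and TRAV12D-2 (0.70), with TRAV10 (0.48) as the last of the 11. With listed counts in place of clonotypes, TRAV7D-3 (2.62) was the only one of the 10 largest to pass, and TRAV7-1 (-0.08), TRAV8N-2 (-0.19) and TRAV4N-4 (-0.07) changed direction. TRAV12D-2 did not pass at 11 or at 13 residues or fewer, nor did TRAV4N-4 at 11 or with DESeq2 (adjusted p = 0.0552).

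Among the lower V segments TRAV15N-2 made up 0.0677% ± 0.124 of short and 1.34% ± 0.738 of other clonotypes (log2 -3.65, SE 0.362, adjusted p = 7.21e-14 in edgeR). TRAV16D/DV11V16N made up 0.508% ± 0.659 and 4.05% ± 1.13 (-2.90, SE 0.243, adjusted p = 1.09e-16 in edgeR), lower in 23 of 23 libraries. TRAV9N-2 (-1.14), TRAV7-4V7D-4V7N-4 (-0.93), TRAV9D-1 (-0.80), TRAV6N-7 (-0.75), TRAV7-4V7D-4 (-0.70), TRAV6-6V6D-6 (-0.61) and TRAV6D-5V6N-5 (-0.53) followed. The calls on TRAV6-6V6D-6 and TRAV6D-5V6N-5 stood close to the threshold: they were lost on leaving out 1 of several libraries, with adjusted p from 0.0511 to 0.0886.

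Names were also summed to families, where a receptor listed under several copy names still counts once per name. Of these, 14 families were tested and 3 (21.4%) were higher: TRAV8 (1.05, SE 0.122), TRAV10 (0.42, SE 0.116) and TRAV7 (0.28, SE 0.0676). A further 4 (28.6%) were lower, namely TRAV15 (-4.29, SE 0.223), TRAV16 (-2.76, SE 0.182), TRAV9 (-0.71, SE 0.0887) and TRAV6 (-0.44, SE 0.157), all in edgeR's quasi-likelihood test. TRAV7 was the largest family, with 26.3% ± 4.94 of short and 21.9% ± 4.09 of other clonotypes. Its members did not move together: TRAV7D-3 was higher and TRAV7-4V7D-4 lower, with the values above. TRAV14, the next largest, took 16.2% ± 3.53 of short and 16.1% ± 2.59 of other clonotypes and did not pass.

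The residues inside the loop differed as well. Between the fourth residue and the last 3, asparagine made up 19.1% ± 1.39 of residues in short and 12% ± 0.666 in other clonotypes, and tyrosine 10.7% ± 0.704 and 5.76% ± 0.387, both higher in 23 of 23 libraries. Methionine was also higher in 23 of 23 (2.30% ± 0.888 and 1.24% ± 0.233). Serine was lower in 23 of 23 (11.4% ± 1.18 against 16.3% ± 0.810) and glycine in 21 (14.9% ± 1.48 against 17.5% ± 0.643). These shares are over a stretch that is itself shorter in short loops. Loops with at least 1 asparagine there differed less, with 70.6% ± 4.38 of short and 67.5% ± 2.00 of other clonotypes (higher in 19 of 23 libraries), while loops with tyrosine made up 59.1% ± 4.46 and 44.9% ± 2.91. Among the tails printed above, asparagine and tyrosine occur in segments with high and with low shares of short clonotypes. Loops ending in tryptophan, as in TRAJ33, made up 5.71% ± 2.15 of short and 2.99% ± 1.16 of other clonotypes. At the V end, CAL opened 14.2% ± 5.31 of short and 22.3% ± 3.46 of other loops, and CAT 8.74% ± 2.35 and 5.60% ± 1.58. Loops share segments and libraries, so these residue shares are given without a test.

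Treatment was set against the share of clonotypes that were short. In control it was 19.9%, 23.4% and 17.7% at D4 and 22.6% and 23% at D11. With trametinib it was 17.9%, 17.9% and 20.6% at D4 and 19.1%, 22.5% and 19.3% at D11. The BGB-283 libraries had 21%, 19% and 17.6% at D4 and 18.4%, 21.6% and 19% at D11. The combination libraries had 19.9%, 21.4% and 20.1% at D4 and 22.3%, 21% and 18.5% at D11. Groups overlapped at D4, and at D11 each of the 9 treated libraries lay below both control libraries. Over all libraries the share kept between 17.6% and 23.4%.

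No treatment contrast passed for the clonotype share in exact two-sided permutation tests within days, adjusted over 6 contrasts. Differences in percentage points are given with a 95% interval from inverting the test. Combination was lower than control by 1.05 (interval -3.84 to 1.94, adjusted p = 0.36, exact permutation test, 6 against 5 libraries). For trametinib against control the difference was -2.02 (-4.69 to 0.965, adjusted p = 0.305, exact permutation test). For BGB-283 against control it was -2.14 (-4.89 to 1.11, p = 0.1, adjusted p = 0.305, exact permutation test). Combination stood above trametinib by 0.961 (-1.03 to 2.93) and above BGB-283 by 1.08 (-0.909 to 3.12), each with adjusted p = 0.36 in the exact permutation test. Together these intervals run from -4.89 to 3.12 points. With near copies of large clonotypes removed, an alternative chosen after seeing the data, the 3 differences from control were -1.59, -2.58 and -2.97 in the same order (unadjusted p = 0.04, 0.035 and 0.04, adjusted p = 0.08 each, exact permutation test).

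D11 was compared with D4 over the 4 treatments. The mean clonotype share was 20.7% ± 1.82 at D11 (n = 11) and 19.7% ± 1.77 at D4 (n = 12). The mean difference was 1.13 points (-0.466 to 2.69, p = 0.153, adjusted p = 0.305, permutation test within treatment), positive in 4 of 4 treatments, and 0.387 with near copies removed. With the limit moved to 11 or of 13 residues the differences of all 3 treatments from control changed sign, to between 0.288 and 0.696 points, without passing.

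The share of TRA counts in short clonotypes varied far more than the share of clonotypes. In bulk RNA, more cells of a clone and more receptor RNA per cell cannot be told apart. Control libraries had 18.8%, 30.2% and 10.1% at D4 and 15.3% and 24.8% at D11. Trametinib libraries had 19.4%, 16.2% and 15.9% at D4 and 16.2%, 23.9% and 22.1% at D11. BGB-283 libraries had 18.9%, 7.16% and 12.7% at D4 and 31.5%, 27.9% and 21% at D11, with no overlap between the days. Combination libraries had 14.3%, 14.7% and 22.8% at D4 and 37.6%, 23.6% and 8.51% at D11. Single clones carried the extremes: in BGB-283 D4 replicate 2 one longer clonotype took 46.4% of TRA counts, and leaving out the largest short clonotype lowered BGB-283 D11 replicate 1 to 8.17% and combination D11 replicate 1 to 25.6%.

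**Figure D3:**
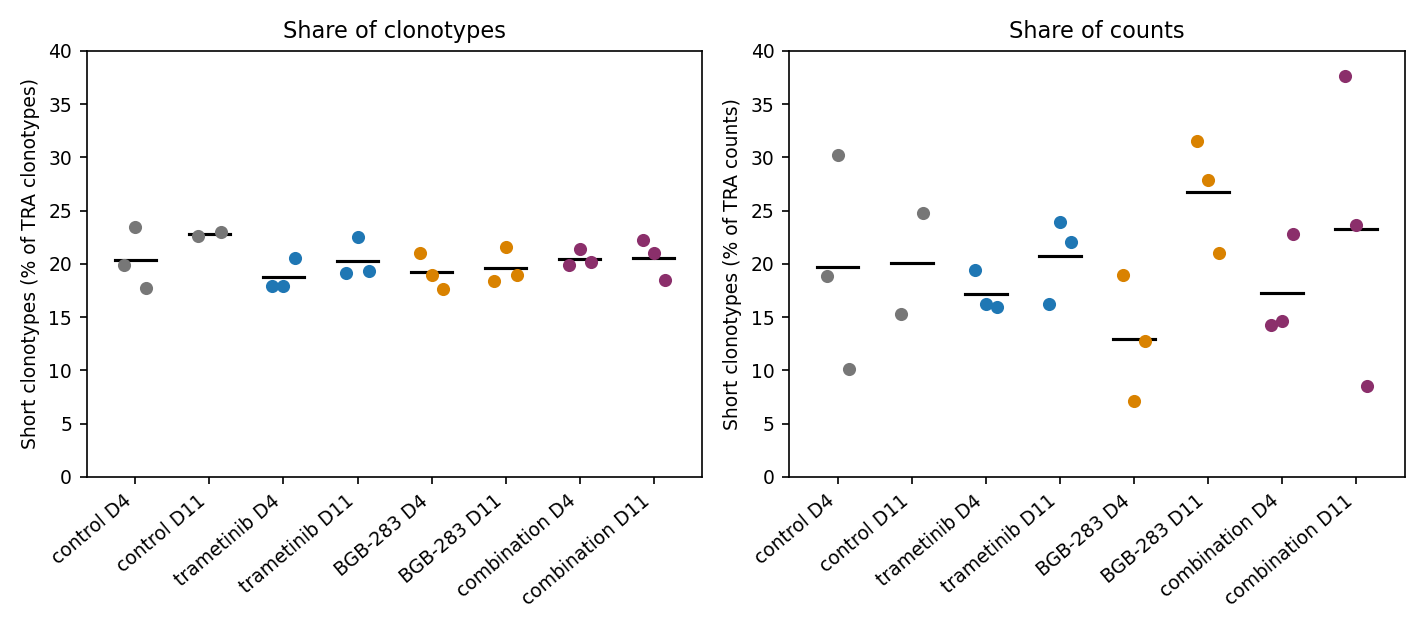
Each point is 1 library: the percent of its distinct TRA clonotypes (left) and of its TRA counts (right) with a CDR3 of 12 residues or fewer, by treatment and day; lines are group means. The clonotype shares lie between 17.6% and 23.4%, and the count shares between 7.16% and 37.6%.

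Tested as log2 odds of counts, no contrast passed. Differences from control were -0.03 for combination (95% interval -1.49 to 1.39), -0.02 for trametinib (-0.85 to 0.79) and -0.07 for BGB-283 (-1.24 to 1.05), each with adjusted p = 0.975 in the exact permutation test. At 11 residues or fewer these turned to 0.58, 0.75 and 0.40, and none passed after adjustment. Combination differed from trametinib by -0.01 (-0.97 to 0.85) and from BGB-283 by 0.04 (-1.06 to 1.12), also with adjusted p = 0.975 in the exact permutation test. D11 stood above D4 by 0.54 (-0.11 to 1.21, p = 0.0985, adjusted p = 0.591, permutation test within treatment), upwards in 4 of 4 treatments, from 0.12 to 1.39. In percent of counts the means were 23% ± 7.96 at D11 (n = 11) and 16.8% ± 6.02 at D4 (n = 12). The difference between BGB-283 and control was -0.70 at D4 and 0.56 at D11, and the test of that change between days gave p = 0.24 (adjusted p = 0.97, exact permutation test). No change of a treatment difference between days passed for any of the 3 measures, the lowest adjusted p being 0.575.

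Clone size, the mean counts per short clonotype over the mean counts per other clonotype of the same library, had a mean log2 ratio of -0.14 ± 0.66 (SD, n = 23), a ratio of 0.910. It was above 0 in 11 libraries and below in 12, and did not differ beyond that spread (p = 0.334, permutation test with signs flipped within libraries, two-sided). The lowest value was -1.60 in BGB-283 D4 replicate 2 and the highest 1.08 in combination D11 replicate 1. With medians in place of means the ratio turned to 0.16 (p = 0.0288, permutation test) and was on the other side of 0. At 11 residues or fewer it was -0.59 (p = 0.00195, permutation test), a call the limit of 12 did not give.

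By treatment the size ratio differed from control by 0.06 for combination (-1.24 to 1.17), 0.16 for trametinib (-0.48 to 0.85) and 0.12 for BGB-283 (-1.04 to 1.12), and combination differed by -0.10 (-0.97 to 0.73) from trametinib and by -0.06 (-1.14 to 0.92) from BGB-283. Each had adjusted p = 0.925 in the exact permutation test. D11 stood above D4 by 0.44 (-0.15 to 1.05, p = 0.134, adjusted p = 0.802, permutation test within treatment), in 3 of 4 treatments, and with medians the difference turned to -0.22. BGB-283 libraries held -0.19, -1.60 and -0.55 at D4 and 1.03, 0.49 and 0.18 at D11, so the days did not overlap there.

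**Figure D4:**
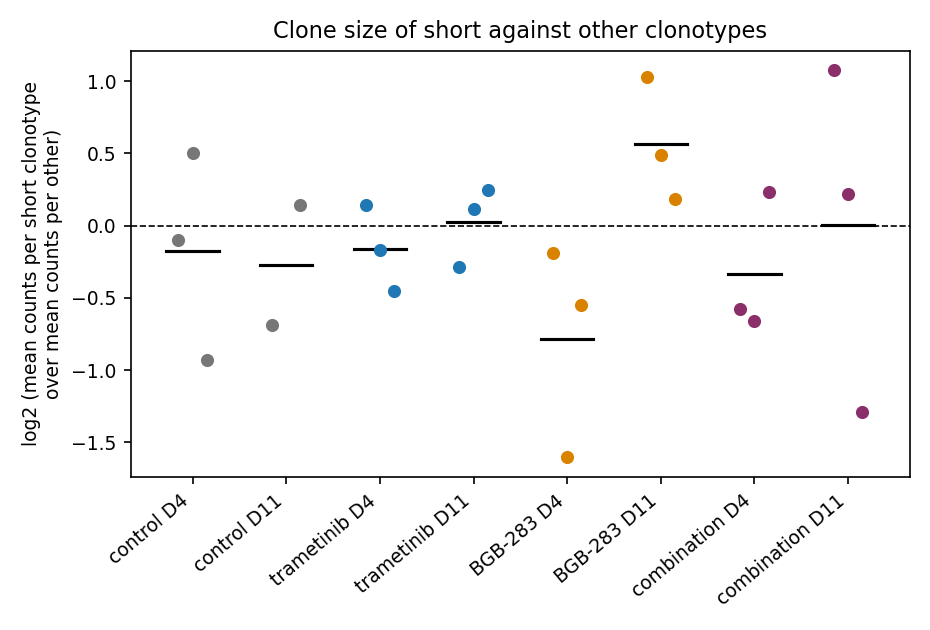
Each point is 1 library: log2 of mean counts per short clonotype over mean counts per other TRA clonotype, by treatment and day; lines are group means and the dashed line marks equal size. Points run from -1.60 to 1.08 and lie on both sides of the line.

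Large clones were about as frequent among short loops as among others. Clonotypes with at least 1% of a library's TRA counts made up 67 of 6589 short listings (1.02%) and 270 of 25963 other listings (1.04%). Of the 10 largest clonotypes of each library 47 of 230 were short (20.4%), from 0 to 5 per library with a median of 2, beside the 20.1% of clonotypes that were short. In 3 of 23 libraries the largest TRA clonotype was short. The largest short clone of a library held from 0.733% (BGB-283 D4 replicate 2) to 25.4% of TRA counts.

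That highest value belonged to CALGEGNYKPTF, printed above, in BGB-283 D11 replicate 1, where it held 29456 counts, 99.6% of its counts in the series; BGB-283 D11 replicate 2 held the rest. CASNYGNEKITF held 16.2% of TRA counts in combination D11 replicate 1 and was listed in 5 libraries. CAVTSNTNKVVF held 9.72% in combination D11 replicate 2 and was listed in 2. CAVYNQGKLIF, of 11 residues, held 9.59% in BGB-283 D11 replicate 3 and was also in 2. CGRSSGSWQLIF held 8.96% in control D4 replicate 2 and was listed nowhere else. Except for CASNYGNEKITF, with 72.2% of its counts in its top library, at least 99.3% of the counts of each of these 5 came from 1 library. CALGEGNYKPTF lacks 2 of the 9 tail residues of TRAJ6, and the other 4 end in whole tails.

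Recurrence depended on what counts as the same receptor and on the limit. With V, J and CDR3 all alike, 531 short clonotypes (9.21%) were listed in at least 2 libraries against 1934 others (8.46%), 32 (0.555%) against 126 (0.551%) in at least 5, and 4 against 17 in at least 10. The most widely listed short clonotype was in 14 libraries and the most widely listed other in 20. Within a library 20.1% ± 2.82 of short and 20.2% ± 2.07 of other clonotypes were also listed elsewhere (SD, n = 23), a difference of -0.10 ± 3.85 points, higher for short in 12 of 23 libraries. With the limit at 11 residues the difference was -8.57 points. Control D4 replicate 1, with 52 short clonotypes, stood lowest at -13.3 points.

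With V and J ignored the picture changed. Of 3948 distinct short CDR3 sequences 867 (22.0%) were listed in at least 2 libraries, against 3034 of 18002 others (16.9%). Within a library 49.2% ± 4.74 of short and 39.1% ± 2.60 of other sequences were also listed elsewhere, a difference of 10.1 ± 4.96 points, higher for short in 22 of 23 libraries. Short sequences also joined more V names: 20.7% of them occurred with at least 2, against 15.1% of others. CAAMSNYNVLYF occurred with 19 V names in 21 libraries, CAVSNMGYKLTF with 13 in 21 and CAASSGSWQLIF, with TRAJ22, with 19 in 20. Because near-identical V copies carry different names, some of these are the same V in all but name. A clonotype shared by libraries counts in each, so no test was made.

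**Figure D5:**
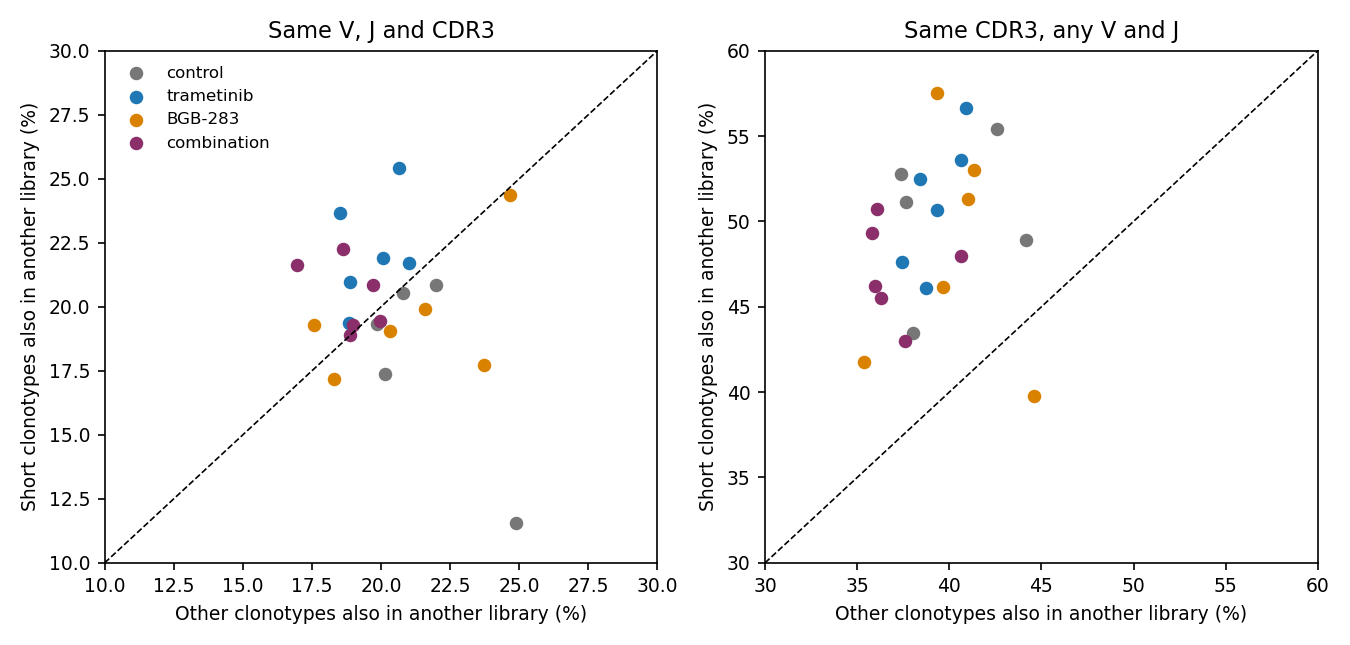
Each point is 1 of 23 libraries: the percent of its other TRA clonotypes (x axis) and of its short ones (y axis) that were also listed in another library, counting V, J and CDR3 (left) or CDR3 alone (right); colours are treatments and the dashed line marks equality. On the left points lie on both sides of the line, and on the right 22 of 23 lie above it.

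Loops that ended in the whole J tail recurred more than those that did not. The latter may be trimmed or may hold a changed residue, as near copies of large clonotypes can. These were not told apart, and the comparison was not made without near copies. Of the short clonotypes 43.5% ended in the full tail, and 14.4% of these were in at least 2 libraries. Of those that did not match 1 or more tail residues 5.25% were. Among other clonotypes 68.5% had the full tail, with 10.5% and 4.14%. Of the 32 short clonotypes in at least 5 libraries 30 had the full tail and 29 were 12 residues long. They used 10 TRAJ segments, led by TRAJ21 with 7, TRAJ30 with 6 and TRAJ9 and TRAJ12 with 4 each.

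The most shared short clonotypes differed widely in size. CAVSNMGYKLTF with TRAV7N-5 had 8.50% of TRA counts in control D4 replicate 2, 1.65% in control D4 replicate 1, 3.14% in trametinib D11 replicate 3, 2.71% in trametinib D11 replicate 2 and 2.20% in BGB-283 D4 replicate 3. Its median was 0.268% over the 14 libraries that listed it, and 3 of the 5 control libraries listed it, as did 3 with trametinib, 4 with BGB-283 and 4 with both. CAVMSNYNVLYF with TRAV7D-3 was listed at 0 in all 5 control libraries and was found in 4 of the trametinib, 3 of the BGB-283 and 4 of the combination libraries, with at most 1.96%. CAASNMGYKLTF with TRAV7D-2 was spread over as many libraries of each treatment, with at most 1.31%. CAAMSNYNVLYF with TRAV14-1V14N-1 reached 0.388%, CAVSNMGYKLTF with TRAV7D-3 reached 0.934%, and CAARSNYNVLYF with TRAV7D-2 reached 0.165%, so these 3 stayed under 1% of TRA counts in every library. Control libraries held 37335 to 226822 TRA counts and were listed with 261 to 800 TRA clonotypes. Treated libraries with at most 800 TRA clonotypes went both ways for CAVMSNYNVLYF with TRAV7D-3. It was listed in trametinib D11 replicate 2 (63824 counts, 769 TRA clonotypes) and BGB-283 D4 replicate 1 (143948 and 775). It was not listed in trametinib D4 replicate 1 (99103 and 730) or BGB-283 D11 replicate 1 (116000 and 522). A value of 0 means only that a clonotype was not listed. Whether it was absent from the control libraries was not tested.

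Within the short clonotypes, the counts per TRAJ segment were compared between treatments and days in edgeR's quasi-likelihood test, with 39 of 41 segments tested. The spread between libraries was wide, with a biological coefficient of variation of 1.56. Against control 0 segments passed for each of the 3 drug groups, and 0 for combination against trametinib (0% of those tested). At an unadjusted p under 0.05 there were 4 for combination, 5 for trametinib and 6 for BGB-283 against control and 3 for combination against trametinib. DESeq2 tested 34 segments and called 6, 6, 9 and 1 in the same order. The DESeq2 calls included TRAJ42 and TRAJ58 in each of the 3 comparisons with control, and TRAJ34, TRAJ35 and TRAJ57 for combination and for trametinib. The DESeq2 log2 difference of TRAJ42 was 11.1 for combination, 11.9 for trametinib and 11.7 for BGB-283 against control (SE 1.96 each). In edgeR it was 4.37, 5.83 and 5.28, without passing. TRAJ42 gave 35 short clonotypes over all libraries, with a lowest library share of 0, and the 3 comparisons share the same control libraries. The size of these differences therefore rests on few clonotypes. For BGB-283 against control the smallest p-values belonged to TRAJ21 (log2 -1.82, SE 0.598), TRAJ26 (2.46, SE 0.848) and TRAJ9 (-1.50, SE 0.621), with adjusted p = 0.127, 0.127 and 0.275 in edgeR. For combination against control they belonged to TRAJ34, TRAJ57 and TRAJ32 (adjusted p = 0.129, 0.237 and 0.425 in edgeR), and for trametinib against control to TRAJ34, TRAJ57 and TRAJ50 (0.143, 0.143 and 0.249). For combination against trametinib TRAJ24, TRAJ48 and TRAJ28 led, each with adjusted p = 0.585 in edgeR.

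Combination and BGB-283 libraries differed in 2 segments (5.13%), TRAJ21 and TRAJ26. TRAJ21 took 57.7%, 34.6% and 40.2% of short counts in combination at D4 and 3.14%, 16.2% and 12.5% at D11. In BGB-283 it took 7%, 13.3% and 8.37% at D4 and 2.44%, 1.57% and 1.57% at D11. At both days every combination library was above every BGB-283 library, at D11 by 3.14% against 2.44% at the closest. These are shares of short counts, so a large clone of another segment lowers them. In the BGB-283 D11 libraries 1 such clone held 80.6% (TRAJ6), 25.7% and 31.1% (both TRAJ26) of short counts. The TRAJ21 and TRAJ26 calls are therefore not separate results, and TRAJ21 counts without these clones were not tested. The log2 difference was 2.36 (SE 0.588, adjusted p = 0.0119 in edgeR), and in control the mean was 14.6% ± 13.4 (n = 5). In distinct clonotypes it was 0.53 (adjusted p = 0.0293), and with TMM 1.97 (adjusted p = 0.0925), both in edgeR. DESeq2 gave 1.76 (adjusted p = 0.0732). Among the largest clonotypes was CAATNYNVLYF (TRAV10DV10N), with 38.6% of short counts in combination D4 replicate 1. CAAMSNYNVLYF joined to TRAV7D-3 had 30.1% in combination D4 replicate 3, where it held 6.86% of TRA counts. The clonotype of the same CDR3 with TRAV14-1V14N-1, named above, was not listed in that library. The call was lost without BGB-283 D4 replicate 1, D11 replicate 2 or D11 replicate 3 (2.27 to 2.31, adjusted p from 0.0601 to 0.0727 in edgeR).

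TRAJ26 went the other way. It took 20.1%, 10.2% and 7.07% of short counts in BGB-283 at D4 and 0.682%, 29.7% and 32.9% at D11, and from 1.42% to 3.08% in the 6 combination libraries. BGB-283 D11 replicate 1 lay below the combination libraries and the other 5 above them. The log2 difference for combination against BGB-283 was -2.76 (SE 0.781, adjusted p = 0.0232 in edgeR), -0.58 in distinct clonotypes (adjusted p = 0.0293) and -2.96 in DESeq2 (adjusted p = 4.13e-05). At D11 the largest TRAJ26 clonotypes were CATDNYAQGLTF with 31.1% of short counts in BGB-283 D11 replicate 3 and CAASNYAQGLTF with 25.7% in replicate 2. The call was lost on leaving out any 1 of 8 libraries (adjusted p from 0.0527 to 0.0973 in edgeR). These were BGB-283 D4 replicate 1, D11 replicate 2 and D11 replicate 3, and each combination library except D11 replicate 1.

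For combination against BGB-283 TRAJ18 had the next smallest p-value (adjusted p = 0.0608 in edgeR). D11 and D4 differed in 1 segment (2.56%), TRAJ6, with a log2 difference of 4.38 (SE 1.15, adjusted p = 0.0219 in edgeR). It rested on few libraries. TRAJ6 took 81.9% of short counts in BGB-283 D11 replicate 1, where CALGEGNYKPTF alone was 80.6%. Among the other D11 libraries it took at most 5.59%, in control D11 replicate 1. Of the 18 short TRAJ6 clonotypes of that library 16 were 1 residue away from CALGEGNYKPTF, with the same V segment, and the largest of the others had 119 counts. Without this library the difference was 2.53 (adjusted p = 0.371 in edgeR), and without control D11 replicate 1 it was 1.09. The call was also lost without control D4 replicate 3 (4.24), trametinib D11 replicate 2 (3.95), combination D4 replicate 1 (4.36) or replicate 2 (4.34). TMM (4.29, adjusted p = 0.124) and the replicate number as a block (4.35, adjusted p = 0.213) lost it too, both in edgeR. In distinct clonotypes 16 segments were tested and TRAJ6 was not among them, so that setting says nothing about it. DESeq2 gave 4.16 with no adjusted p, and its 3 calls for D11 against D4 were other segments (TRAJ42, TRAJ5 and TRAJ56). TRAJ21 (-1.26, SE 0.418) and TRAJ23 (1.99, SE 0.748) followed, with adjusted p = 0.0976 and 0.154 in edgeR.

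Invariant alpha chains fell on both sides of the limit. The MAIT chain joins TRAV1 to TRAJ33, and 2 of its 3 clonotypes were short, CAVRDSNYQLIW with 62 counts and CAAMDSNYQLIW with 57, together 119 of 134 counts, in 2 combination D4 libraries. In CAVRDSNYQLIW the whole tail of TRAJ33 follows 4 residues. Of 41 clonotypes joining a TRAV11 name to TRAJ18, as iNKT cells do, 1 was short, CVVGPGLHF, with 48 of 23017 counts and in 1 library. It keeps only the last residues of the TRAJ18 tail printed above.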

How the data were processed

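The authors deposited 1 table of unscaled counts for every rearrangement, used as given. Per the labels' protocols, libraries came from RNA with the QIAGEN QIAseq Immune Repertoire kit. GRCh38, which is human, stands in the submitters' processing notes for these mouse samples, so no coordinates were used. The clonotype caller is not given in the sources used here. Listed counts began at 3. Of 29139 TRA entries, 92 with unresolved residues and 428 not starting with C were left out (0.155% of TRA counts). All 41 TRAJ and 68 of 143 TRAV names matched RefSeq symbols (GRCm38.p6); the other 75 are joint names.

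Shares and clone sizes were tested by permutation within days or treatments (numpy 2.4.6, scipy 1.17.1), adjusted over 6 contrasts at 0.05; the smallest p of a treatment contrast is 0.005. Intervals hold the differences that the test does not reject at 0.05. Log2 odds had 0.5 counts added. Segments were tested with edgeR 4.0.16 (filterByExpr, class totals as library sizes, no TMM; SE is the log2 difference over the square root of F), with DESeq2 1.42.0 as an alternative, and tests were checked on simulated data. Named segments are up to 10 per direction with the largest difference past the threshold, or the 3 smallest p-values where fewer than 5 passed; named clonotypes are the 6 in most libraries, the 6 with the highest share in a library, 2 of the shortest length with at least 5 members, the MAIT clonotype and the most abundant of 12 and of 13 residues. TRAJ30, TRAV10, the DESeq2 calls and clonotypes named beside TRAJ21, TRAJ26 or several V names were chosen after their values were seen. Members and lists were chosen with earlier results of these data known.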

Additional observations from a re-analysis of the deposited data

How the results depend on the processing

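Adjusted p was counted over the alternatives of the 19 results tested by permutation. With no library left out, 2 of 183 fell below 0.05, both on clone size over all libraries, a single test without adjustment. With a library left out, 0 of 437 did (lowest adjusted p 0.108, permutation tests). Unadjusted p-values under 0.05 in single contrasts are not in these counts. Unless stated, the cause of a change was not tested. Moving the limit to 11 residues turned the clonotype share against control to 0.427 points for combination, 0.288 for trametinib and 0.696 for BGB-283, and combination against BGB-283 to -0.269. It turned the log2 odds of counts against control to 0.58, 0.75 and 0.40 in the same order and the size ratio of combination against BGB-283 to 0.25, and gave -0.59 for the overall size ratio and -8.57 points for recurrence. The limit of 13 gave clonotype shares of 0.624, 0.672 and 0.617 points against control and -0.0482 for combination against trametinib, whose count share turned to 0.21. Size ratios were then -0.0562, -0.27 and -0.21 against control, 0.21 and 0.15 for combination against trametinib and BGB-283, and 0.0445 overall. Without each library's largest TRA clonotype the size ratio was -0.10 for combination and -0.15 for BGB-283 against control and 0.0479 for combination against BGB-283. With medians it was -0.0398 for trametinib and -0.0205 for BGB-283 against control, 0.12 and 0.10 for combination against trametinib and BGB-283, -0.22 for D11 against D4 and 0.16 overall. Recurrence by CDR3 alone gave 10.1 points.

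Against 31 of 35 tested TRAJ segments, 11 of 22 were called at 11 residues or fewer. Against 20 of 47 tested TRAV names, 39 of 118 were called with listed counts (1 higher, 38 lower). At 11 residues or fewer 13 of 33 were called, with no filter 35 of 143 and as families 7 of 14. Within short clonotypes, distinct clonotypes gave 1 call for combination against trametinib (TRAJ48) and 0 for D11 against D4. Only 16 segments were tested there, without TRAJ6. TMM gave 1 for combination against BGB-283 and 0 for D11 against D4. DESeq2, with 34 segments tested, called 6, 6 and 9 for the drug groups against control in the same order as above. It called 1 and 4 for combination against trametinib and BGB-283, and 3 for D11 against D4.

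The pairing by replicate number was checked and not used. In 1 of 21 group pairs (BGB-283 D11 with combination D11) every correlation of same-numbered libraries was over 0.1, and the values ran from -0.45 to 0.31. With the number as a block the count share of combination against control was 0.24, and within short clonotypes 1 segment was called for combination against control (TRAJ34) and 0 for D11 against D4.

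Leaving out 1 library at a time gave clonotype share differences of -1.72 to -0.286 points for combination, -2.68 to -1.25 for trametinib and -2.80 to -1.37 for BGB-283 against control, 0.543 to 1.51 and 0.665 to 1.6 for combination against trametinib and BGB-283, and 0.799 to 1.52 for D11 against D4. In the same order, count shares (log2 odds) gave -0.33 to 0.34, -0.27 to 0.22, -0.32 to 0.17, -0.31 to 0.36, -0.26 to 0.41 and 0.39 to 0.73, and size ratios -0.21 to 0.38, -0.0514 to 0.37, -0.0912 to 0.33, -0.37 to 0.22, -0.33 to 0.26 and 0.31 to 0.60. The overall size ratio ran from -0.19 to -0.07 and recurrence from -0.70 to 0.59 points. Calls ran from 25 to 35 for TRAJ and from 18 to 21 for TRAV. Within short clonotypes they ran from 0 to 1 for the 3 comparisons with control and for combination against trametinib, 0 to 3 for combination against BGB-283 and 0 to 2 for D11 against D4. The shallowest library held 37335 TRA counts and 73 short clonotypes, so small shifts were not detectable there.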
